A study of Homo sapiens with 12 samples.

Results

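The genes described here encode the proteins of the nuclear pore and the carriers that move cargo through it, the importins and exportins. They were taken by symbol from the FPKM table: every row named NUP, KPNA, KPNB, IPO, XPO or TNPO with a number (or XPOT), plus RANBP2, TPR, POM121, NDC1, AAAS, RAE1, SEH1L and SEC13. The rule used no measured value and found 52 of the 54261 genes in the table, 28 nucleoporins and 24 transport receptors.

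The nuclear pore complex is a large channel through the nuclear envelope, built from many copies of a limited set of proteins. A Y-shaped complex and an inner ring form its scaffold, membrane proteins anchor it, proteins rich in phenylalanine-glycine repeats fill the channel, and filaments reach from its cytoplasmic face while a basket hangs from its nuclear face. Importins carry proteins into the nucleus and exportins carry proteins and RNAs out, and the small GTPase Ran, bound to GTP in the nucleus, sets the direction by releasing import cargo and loading export cargo.

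RNA was sequenced from BON-1, an established human cell line from a pancreatic neuroendocrine tumour, in 12 libraries of 3 per group. In the control group BON-1 was labelled with no partner (BON-1 alone), and in the other 3 groups BON-1 cells had been cultured with cancer-associated fibroblasts (CAFs), the fibroblasts of tumour stroma, in the proportions 10:2, 10:4 and 10:6 of BON-1 to CAF. The labels state that the BON-1 cells were taken out of the co-culture by flow cytometry before poly(A) RNA was sequenced; they name no fibroblast donor or line, no culture time and no purity of the sort, and do not say whether BON-1 alone went through the sorter. Whether the 3 libraries of a group came from separate cultures is not stated, so the p-values measure the spread between these libraries, which may be technical.

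Levels are given in FPKM (fragments per kilobase, scaled to library size). FPKM is scaled to length but not corrected for GC content, so a comparison of levels between genes is approximate. Library depth, recovered from the FPKM steps, was 11703624 to 21882537 reads. The 3 fibrillar collagen chains COL1A1, COL1A2 and COL3A1, which fibroblasts make, summed to 14.1 to 15.3 FPKM in BON-1 alone, 30.2 to 31.3 FPKM at 10:2, 63.9 to 66.3 FPKM at 10:4 and 98.1 to 100.7 FPKM at 10:6. Over the whole list of 19 fibroblast markers the sum was 2405 to 2486, 2279 to 2358, 2369 to 2617 and 2554 to 2840 FPKM in those groups, most of it S100A4, no marker was at 0 in every library, and 9, 13 and 13 of the 15 tested markers rose at 10:2, 10:4 and 10:6 while 0 fell; COL5A1, THY1 and PDGFRB were tested only because the co-cultures passed the 1 FPKM filter. The 7 neuroendocrine markers summed to 2553 to 2627 FPKM in BON-1 alone and 2778 to 2955 FPKM in the co-cultures, most of it SCG2 and CHGA. Of the 6 tested, SCG2 and CHGB rose at every ratio, while 3 fell at 10:2 and 4, CHGA among them, at 10:4 and at 10:6. The 7 leukocyte and endothelial markers summed to 44.5 to 48.8 FPKM across all 12 libraries, with CD3E at 0 throughout. Most of that sum was CDH5 and KDR, with means of 28.8 and 10.9 FPKM in BON-1 alone. Of the 3 tested, 1 rose and 1 fell at 10:6, where 29.7% of all tested genes rose and 18.3% fell. The part of any fibroblast RNA in the results below was not tested, and because these are bulk libraries a change in the mix of cells and a change in RNA per cell cannot be told apart.

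Most of the pore and transport genes were higher in every co-culture than in BON-1 alone, and a smaller set, led by NUP188, IPO13 and IPO4, was lower. In limma's moderated test on log2(FPKM + 1), with Benjamini-Hochberg adjustment over the 13312 genes tested and a threshold of 0.05, 29 members rose and 5 fell at 10:2, 29 rose and 11 fell at 10:4, and 31 rose and 12 fell at 10:6. The background over all tested genes was 19.9% rising and 7.46% falling at 10:2, 27.3% and 18.1% at 10:4, and 29.7% and 18.3% at 10:6. Across the members the median log2 change was 0.32, 0.35 and 0.39 in the 3 comparisons, beside 0.0034, -0.010 and 0.019 over all tested genes. The 3 comparisons share the BON-1 alone libraries. In all of them 28 members, XPO4 included, rose and 4 fell, 5 were called in none, and 0 rose in one and fell in another. The share of all tested genes with such joint calls was not computed, so these counts cannot be set against a background. The 5 falls at 10:2 became 1 to 3 when any 1 of the 6 libraries of that comparison was left out. These counts cover 50 members: KPNA5 lay at 0.43 to 1.10 FPKM and KPNA7 at 0 to 0.11 FPKM, below the filter of 1 FPKM in 3 libraries, and XPO4 passed that filter only through the co-cultures.

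Gene GC content moved with these changes, and its part in them was not tested. The members' longest transcripts held 36.4% to 59.4% GC with a median of 44.1%, against 49.7% for all tested genes. At 10:6, 31 of the 38 members below that median rose and 2 fell, where 59.2% of all such genes rose and 2.64% fell; of the 12 members at or above it 0 rose and 10 fell, where 3.41% rose and 36.0% fell. With each library's trends on GC content and gene length removed, 18 members rose and 7 fell at 10:2, 21 and 13 at 10:4, and 20 and 11 at 10:6. The background was 6.03% and 5.52%, 10.6% and 12.5%, and 11.5% and 14.1%. Every member that rose with the trends removed had also risen without that step. The members' median log2 change was then 0.060 at 10:2, 0.078 at 10:4 and 0.0024 at 10:6. Over all genes in that fit it was -0.013, -0.019 and -0.021.

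**Figure D1:**
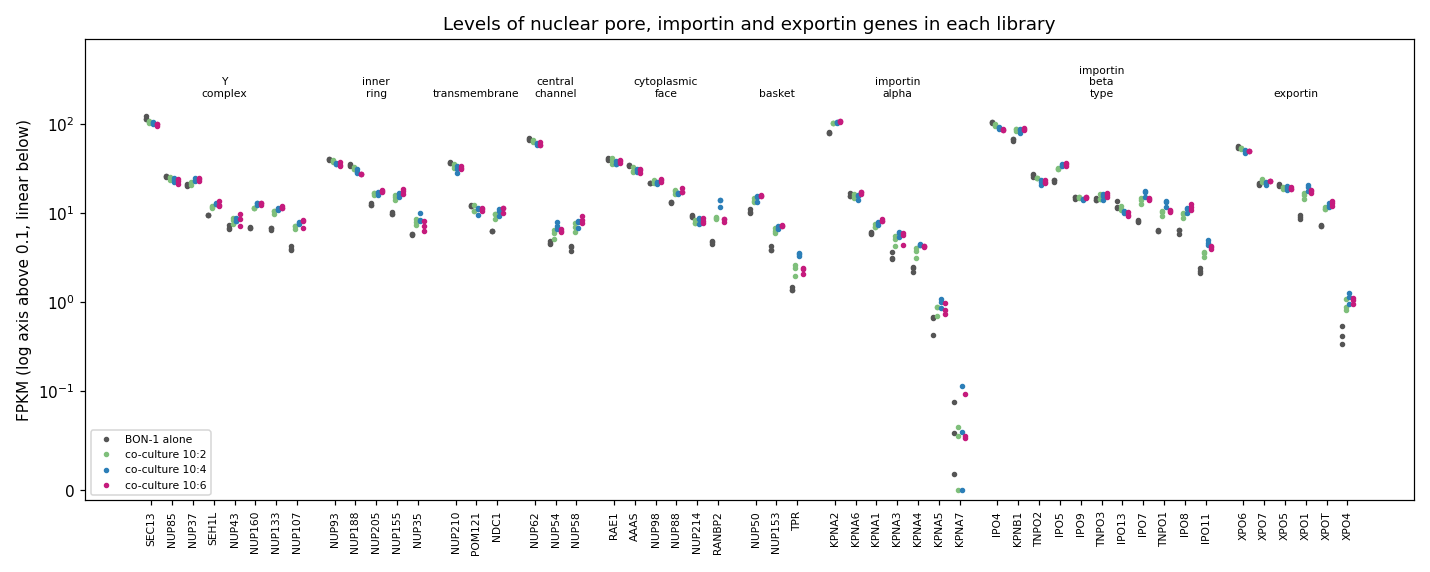
FPKM of all 52 genes in each of the 12 libraries, grouped by role and ordered within a role by level, on an axis that is logarithmic above 0.1 and linear below. Grey dots are BON-1 alone and green, blue and magenta dots the co-cultures at 10:2, 10:4 and 10:6; in BON-1 alone the means run from KPNA7 up to SEC13, at 117.0 FPKM.

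RANBP2, also called NUP358, builds the filaments on the cytoplasmic face of the pore, where it binds Ran and acts as a SUMO ligase. On the log2(FPKM + 1) scale it had the largest change of any member at 10:2 and at 10:4. The libraries of BON-1 alone had 4.504, 4.76 and 4.86 FPKM of RANBP2, with 9.09, 8.67 and 8.84 FPKM at 10:2, 11.7, 13.9 and 13.9 FPKM at 10:4 and 7.93, 8.56 and 8.63 FPKM at 10:6. All 9 co-culture libraries were above all 3 libraries of BON-1 alone, and the 10:4 libraries were above those of both other ratios without overlap. Against BON-1 alone the mean was 1.88-fold at 10:2 (log2 change 0.79 ± 0.06, SE; adjusted p = 8.17e-06), 2.80-fold at 10:4 (1.31 ± 0.06; adjusted p = 9.19e-08) and 1.78-fold at 10:6 (0.72 ± 0.06; adjusted p = 5.67e-06). After removal of the length and GC trends, RANBP2 changed by 0.45, 0.82 and 0.26, and each passed the threshold. RANBP2 has near-identical copies, the RGPD genes, that can take or lend reads; the 7 RGPD rows together held 8 to 51 reads per library, beside 735 to 2142 for RANBP2.

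The sequence below is a 90-base window at the centre of the longest coding exon of RANBP2 (GENCODE 29), read from the gene's own strand with G and C in capitals, and XPO1, NUP188 and IPO4 follow as another gene that rose and a pair that fell. They are shown because the members that rose and those that fell differed in base composition.
RANBP2, GRCh38 chr2:108765768-108765857, plus strand, coding part of exon 20 of 29, 41.1% GC: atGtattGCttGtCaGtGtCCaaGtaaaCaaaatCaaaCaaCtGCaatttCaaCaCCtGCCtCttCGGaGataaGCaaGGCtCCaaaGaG
XPO1, GRCh38 chr2:61493948-61494037, minus strand, coding part of exon 12 of 25, 42.2% GC: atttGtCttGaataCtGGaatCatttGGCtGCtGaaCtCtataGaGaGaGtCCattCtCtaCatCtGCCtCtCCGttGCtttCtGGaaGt
NUP188, GRCh38 chr9:129005372-129005461, plus strand, coding part of exon 40 of 44, 61.1% GC: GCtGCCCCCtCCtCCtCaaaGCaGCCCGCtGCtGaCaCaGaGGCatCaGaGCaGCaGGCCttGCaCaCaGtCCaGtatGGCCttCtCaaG
IPO4, GRCh38 chr14:24182015-24182104, minus strand, coding part of exon 26 of 30, 66.7% GC: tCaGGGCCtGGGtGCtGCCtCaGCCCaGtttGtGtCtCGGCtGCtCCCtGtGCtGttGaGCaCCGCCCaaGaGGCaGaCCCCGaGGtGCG
Over the whole coding sequence the GC content was 40.1% in RANBP2, 37.1% in XPO1, 52.2% in NUP188 and 59.9% in IPO4.

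Of the other members of the cytoplasmic face NUP88 rose, and the rest fell or passed no test. NUP88, the anchor of NUP214 and chosen for mention after its values were seen, rose in all 3 comparisons and reached 17.8 ± 0.954 FPKM (SD, n = 3) at 10:6, against 13.3 ± 0.195 FPKM in BON-1 alone. Its partner NUP214, a repeat protein used in mRNA export, was lower in the co-cultures. For NUP214 the values were 9.33, 8.97 and 9.48 FPKM in BON-1 alone, 7.79, 8.36 and 7.79 FPKM at 10:2, 7.54, 8.55 and 8.84 FPKM at 10:4 and 8.79, 7.78 and 8.19 FPKM at 10:6. All co-culture libraries were below those of BON-1 alone, and NUP214 fell at 10:2 (log2 change -0.19 ± 0.06, adjusted p = 0.0361), while the adjusted p was 0.0766 at 10:4 and 0.061 at 10:6. AAAS, or ALADIN, which sits near the pore membrane, had 31.1, 28.4 and 30.5 FPKM at 10:6 and 34.9, 34.5 and 33.4 FPKM in BON-1 alone. All AAAS co-culture libraries were below BON-1 alone, and it fell in all 3 comparisons by 0.16, 0.18 and 0.19 on the log2 scale, calls that were lost with length and GC trends removed. RAE1, an mRNA export factor and the highest of this group, had 36.3, 38.3 and 39.6 FPKM at 10:6 and 41.96, 39.4 and 40.8 FPKM in BON-1 alone, with overlap. It fell at 10:4 alone, where its libraries had 38.2, 35.7 and 35.9 FPKM (-0.15 ± 0.05, adjusted p = 0.0328), a call lost without BON-1 alone replicate 1 or 3 or 10:4 replicate 2 or 3, where the adjusted p reached 0.108. Its binding partner NUP98 passed no test, at 23.3 ± 0.816 FPKM at 10:6 and 21.8 ± 0.28 FPKM in BON-1 alone.

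All 3 basket genes rose in every co-culture, where 19.9%, 27.3% and 29.7% of all tested genes rose at 10:2, 10:4 and 10:6. The basket is the fibre cage on the nuclear side of the pore, built around TPR and NUP153, with NUP50 as a mobile partner that helps release import cargo. The 3 genes together summed to 15.9 ± 0.518 FPKM in BON-1 alone, 22.6 ± 0.96 FPKM at 10:2, 24.98 ± 1.32 FPKM at 10:4 and 25.3 ± 0.552 FPKM at 10:6 (mean ± SD, n = 3). The TPR level was 1.48, 1.38 and 1.37 FPKM in BON-1 alone, 1.97, 2.59 and 2.41 FPKM at 10:2, 3.45, 3.33 and 3.54 FPKM at 10:4 and 2.45, 2.08 and 2.35 FPKM at 10:6. TPR was thus at a low level everywhere, with no overlap between BON-1 alone and any co-culture, and its 10:4 libraries were the highest. Levels of NUP50 were 11.1, 10.01 and 10.3 FPKM in BON-1 alone, 14.8, 13.2 and 13.6 FPKM at 10:2, 13.3, 15.5 and 15.1 FPKM at 10:4 and 15.6, 15.5 and 16.1 FPKM at 10:6. All NUP50 co-culture libraries lay above those of BON-1 alone. The log2 changes at 10:6 were 0.45 ± 0.08 for TPR, 0.55 ± 0.06 for NUP50 and 0.71 ± 0.06 for NUP153, with adjusted p from 2.4e-06 for NUP153 to 0.000732 for TPR. With length and GC trends removed NUP153 rose in all 3 comparisons, NUP50 at 10:6 alone and TPR at 10:4 alone, its change at 10:6 being -0.000126.

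The scaffold divided. In the Y complex, the outer ring that also seeds pore assembly on chromatin, 6 of 8 members rose and 2 fell at 10:6. Over all tested genes 29.7% rose and 18.3% fell. With the trends removed 3 members of the complex rose and 2 fell, on a background of 11.5% and 14.1%. NUP107 had 3.93, 4.24 and 3.81 FPKM in the libraries of BON-1 alone, 6.58, 7.21 and 7.23 FPKM at 10:2, 7.71, 7.63 and 7.87 FPKM at 10:4 and 6.83, 8.28 and 8.07 FPKM at 10:6. The libraries of BON-1 alone had 6.73, 6.77 and 7.03 FPKM of NUP160, with 11.5, 11.5 and 11.4 FPKM at 10:2, 12.8, 12.2 and 13.04 FPKM at 10:4 and 12.95, 12.8 and 12.3 FPKM at 10:6. For both genes every co-culture library was above every library of BON-1 alone, and the changes at 10:6 were 0.80 ± 0.07 and 0.80 ± 0.04 (adjusted p = 3.29e-06 and 7.77e-08). SEC13, which also coats the vesicles that leave the endoplasmic reticulum, was the most abundant of all 52 genes in BON-1 alone and went the other way. For SEC13 the values were 115, 115 and 122 FPKM in BON-1 alone, 103, 106 and 107 FPKM at 10:2, 106, 99.9 and 101 FPKM at 10:4 and 95.8, 99.3 and 99.2 FPKM at 10:6. It fell in all 3 comparisons, by 0.25 ± 0.03 at 10:6 (adjusted p = 0.000102), and also with length and GC trends removed. In BON-1 alone the FPKM of SEC13 (50% GC) was 29.3 times that of NUP107 (40.5% GC), although both belong to the same complex. NUP37, a small subunit, rose at 10:4 and 10:6 by 0.20 and 0.21 but fell by 0.24 and 0.17 once the trends were removed.

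The inner ring, which lines the channel at the level of the membrane, had 3 members that rose and 2 that fell at 10:6. Over all tested genes 29.7% rose and 18.3% fell. With the trends removed 2 members of the ring rose and 2 fell, on a background of 11.5% and 14.1%. The NUP155 level was 9.67, 9.66 and 10.2 FPKM in BON-1 alone, 15.4, 13.9 and 15.95 FPKM at 10:2, 15.1, 16.8 and 16.4 FPKM at 10:4 and 16.4, 17.7 and 18.5 FPKM at 10:6. Levels of NUP188 were 34.2, 34.99 and 35.2 FPKM in BON-1 alone, 32.7, 30.9 and 31.5 FPKM at 10:2, 28.6, 28.02 and 30.9 FPKM at 10:4 and 27.4, 27.6 and 27.7 FPKM at 10:6. NUP155, which contacts the membrane, and NUP188, a large scaffold protein, moved in opposite directions, and the BON-1 alone libraries overlapped with no co-culture library in either gene. The log2 changes at 10:6 were 0.77 ± 0.06 for NUP155 (adjusted p = 2.24e-06) and -0.32 ± 0.04 for NUP188 (adjusted p = 4.54e-05). NUP93, the adaptor that ties NUP188 and the channel proteins to the ring, had 37.4, 33.7 and 34.5 FPKM at 10:6 and 40.1, 39.7 and 40.3 FPKM in BON-1 alone, without overlap, and fell by 0.18 ± 0.04 (adjusted p = 0.00227). NUP188 and NUP93 fell at 10:4 and 10:6 with the trends removed as well, NUP93 by 0.31 at 10:6. The other members were NUP205 and NUP35, which rose at every ratio; with the trends removed NUP205 still did, and NUP35 at none.

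Among the 3 transmembrane members NDC1 rose, NUP210 fell at 10:4 and 10:6, and POM121 passed no test. NDC1, named after its values were seen, averaged 10.98 ± 0.721 FPKM at 10:6 and 6.300 ± 0.0583 FPKM in BON-1 alone. NUP210 had 37.2, 36.3 and 36.9 FPKM in the libraries of BON-1 alone, 35.9, 33.6 and 32.3 FPKM at 10:2, 28.2, 31.1 and 33.4 FPKM at 10:4 and 33.7, 31.6 and 31.8 FPKM at 10:6. The BON-1 alone libraries of NUP210, a membrane glycoprotein, were above every co-culture library, and its fall at 10:6 of 0.18 ± 0.06 (adjusted p = 0.0212) was lost with length and GC trends removed (adjusted p = 0.078). POM121 has a near copy, POM121C, whose level of 11.3 to 13.1 FPKM was close to its own, so that reads may be split between them.

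In the channel, 3 proteins with phenylalanine-glycine repeats, NUP62, NUP58 and NUP54, form 1 complex that makes up much of the barrier. The libraries of BON-1 alone had 4.298, 3.76 and 4.12 FPKM of NUP58, with 7.001, 6.09 and 7.67 FPKM at 10:2, 6.72, 8.06 and 7.998 FPKM at 10:4 and 7.73, 8.403 and 9.27 FPKM at 10:6. For NUP62 the values were 68.9, 66.8 and 67.7 FPKM in BON-1 alone, 66.1, 64.2 and 63.5 FPKM at 10:2, 57.7, 59.1 and 61.9 FPKM at 10:4 and 62.3, 58.8 and 58.2 FPKM at 10:6. NUP58 was higher in every co-culture library than in BON-1 alone, with the largest change of any member at 10:6 on the log2(FPKM + 1) scale (0.90 ± 0.09, adjusted p = 1.18e-05), while NUP62 was lower in every co-culture library. NUP62 passed the test at 10:4 and 10:6 (-0.18 and -0.18, adjusted p = 0.00143 and 0.00155), but at neither ratio with the trends removed. In BON-1 alone the FPKM of NUP62 (58.4% GC) was 16.7 times that of NUP58 (36.4% GC). NUP54 rose at every ratio, to 6.39 ± 0.254 FPKM at 10:6 against 4.63 ± 0.193 FPKM in BON-1 alone, but at no ratio with the trends removed.

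**Figure D2:**
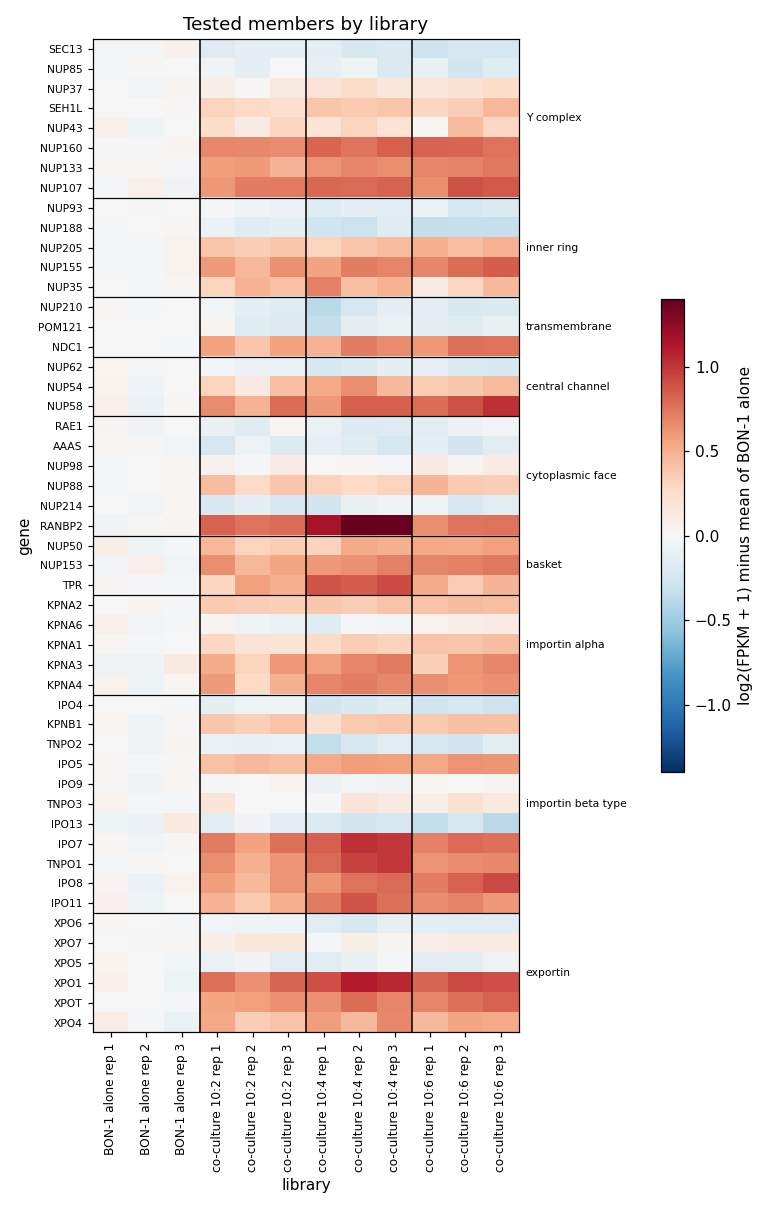
Difference of each library from the mean of BON-1 alone, in log2(FPKM + 1), for the 50 tested genes (rows, by role) and 12 libraries (columns, with vertical lines between BON-1 alone, 10:2, 10:4 and 10:6). Red is above and blue below BON-1 alone; RANBP2 is darkest in the 10:4 libraries, the basket is red in all co-culture libraries, and SEC13, NUP188, IPO4 and TNPO2 are blue.

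Importin alpha proteins are the adaptors that read the classical nuclear localisation signal and hand the cargo to importin beta, KPNB1. As a group they summed to 108 ± 0.998 FPKM in BON-1 alone, 134 ± 2.56 FPKM at 10:2, 138 ± 2.25 FPKM at 10:4 and 143 ± 2.73 FPKM at 10:6. The KPNA2 level was 79.4, 81.9 and 78.6 FPKM in BON-1 alone, 103, 102 and 101 FPKM at 10:2, 104, 101 and 106 FPKM at 10:4 and 105, 109 and 108 FPKM at 10:6. KPNA2, the most abundant of them, was higher in all 9 co-culture libraries, by 0.42 ± 0.03 at 10:6 (adjusted p = 4.99e-07), and rose in all 3 comparisons with the trends removed. Levels of KPNA1 were 6.14, 5.87 and 6.04 FPKM in BON-1 alone, 7.58, 6.98 and 6.99 FPKM at 10:2, 7.43, 7.94 and 7.802 FPKM at 10:4 and 8.26, 8.17 and 8.499 FPKM at 10:6. KPNA1 showed no overlap either and rose at every ratio, by 0.41 ± 0.05 at 10:6, but with length and GC trends removed its changes were -0.10, -0.15 and -0.04, and it fell at 10:4. KPNA3 and KPNA4 rose at every ratio and KPNA6 at none, while with the trends removed KPNA3 was called at no ratio, KPNA4 rose at 10:4 alone, and KPNA6 fell at 10:2 and 10:4. KPNB1, the common partner, was named after its values were seen. It stood at 87.97 ± 1.61 FPKM at 10:6 and 66.6 ± 1.805 FPKM in BON-1 alone, and rose in all 3 comparisons with or without the trends.

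The importin beta type carriers other than KPNB1, which takes cargo from importin alpha, bind their own cargoes without an adaptor. Of the 11 tested, KPNB1 included, 6 rose and 3 fell at 10:6, where 29.7% of all tested genes rose and 18.3% fell. With the trends removed 6 rose and 4 fell, on a background of 11.5% and 14.1%. IPO8 had 6.39, 5.78 and 6.42 FPKM in the libraries of BON-1 alone, 9.81, 8.84 and 10.1 FPKM at 10:2, 10.1, 11.2 and 11.5 FPKM at 10:4 and 10.8, 11.8 and 12.6 FPKM at 10:6. The libraries of BON-1 alone had 8.298, 7.87 and 8.19 FPKM of IPO7, with 14.1, 12.5 and 14.6 FPKM at 10:2, 15.3, 17.6 and 17.1 FPKM at 10:4 and 13.9, 14.8 and 14.5 FPKM at 10:6. For IPO5 the values were 23.4, 22.6 and 23.4 FPKM in BON-1 alone, 31.1, 32.00 and 31.3 FPKM at 10:2, 33.8, 35.3 and 35.02 FPKM at 10:4 and 34.2, 36.3 and 35.9 FPKM at 10:6. In IPO8, IPO7 and IPO5, importins for which ribosomal proteins, signalling proteins and other cargoes are known, all co-culture libraries exceeded all libraries of BON-1 alone. Their log2 changes at 10:6 were 0.82 ± 0.07, 0.76 ± 0.06 and 0.60 ± 0.03, with adjusted p of 3.76e-06, 3.08e-06 and 2.19e-07, and all 3 genes rose at every ratio with the trends removed. The IPO11 level was 2.401, 2.14 and 2.26 FPKM in BON-1 alone, 3.59, 3.21 and 3.66 FPKM at 10:2, 4.41, 4.99 and 4.58 FPKM at 10:4 and 4.16, 4.27 and 3.99 FPKM at 10:6. Levels of TNPO1 were 6.26, 6.39 and 6.33 FPKM in BON-1 alone, 10.5, 9.34 and 10.2 FPKM at 10:2, 11.7, 13.2 and 13.5 FPKM at 10:4 and 10.3, 10.6 and 10.7 FPKM at 10:6. IPO11, an importin of ubiquitin-conjugating enzymes, and TNPO1, transportin 1, which imports many RNA-binding proteins, rose at every ratio too. At 10:6 the change was 0.65 ± 0.06 for IPO11 and 0.66 ± 0.06 for TNPO1. With the trends removed TNPO1 rose at every ratio and IPO11 at 10:4 and 10:6 but not at 10:2. Exons of IPO11 share bases with KIF2A and LRRC70 on the same strand, so some of its reads may belong to those genes.

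IPO4, IPO13 and TNPO2 were the carriers of this type that fell. IPO4 had 104, 104 and 103 FPKM in the libraries of BON-1 alone, 94.8, 98.5 and 98.9 FPKM at 10:2, 86.8, 89.4 and 92.1 FPKM at 10:4 and 85.2, 87.2 and 84.5 FPKM at 10:6. The libraries of BON-1 alone had 11.8, 11.5 and 13.7 FPKM of IPO13, with 10.9, 11.9 and 11.2 FPKM at 10:2, 10.6, 10.1 and 10.3 FPKM at 10:4 and 9.498, 10.2 and 9.25 FPKM at 10:6. IPO4, an importin of histones and ribosomal proteins, was the most abundant carrier in BON-1 alone and was lower in every co-culture library, while IPO13, which works in both directions, was lower in every 10:6 library. At 10:6 IPO4 fell by 0.28 ± 0.03 (adjusted p = 2.03e-05) and IPO13 by 0.32 ± 0.06 (adjusted p = 0.0012). TNPO2, the close relative of TNPO1, had 22.1, 21.8 and 23.6 FPKM at 10:6 and 26.6, 25.6 and 27.2 FPKM in BON-1 alone. It fell by 0.23 ± 0.05, and so went the opposite way to TNPO1. All 3 also fell at 10:6 with the trends removed, by 0.16, 0.22 and 0.16. TNPO3, an importin of splicing factors, and IPO9 passed no test, but IPO9 fell at every ratio with the trends removed.

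Of the 6 exportins 4 rose and 2 fell at 10:6, where 29.7% of all tested genes rose and 18.3% fell. The rises include XPO4, which passed the filter only through the co-cultures. They also include XPO7, at 22.9 ± 0.245 FPKM at 10:6 and 21.2 ± 0.393 FPKM in BON-1 alone. With the trends removed 2 exportins rose and 2 fell, on a background of 11.5% and 14.1%. For XPO1 the values were 9.45, 9.08 and 8.52 FPKM in BON-1 alone, 16.1, 14.6 and 16.6 FPKM at 10:2, 17.7, 20.5 and 19.8 FPKM at 10:4 and 16.7, 18.05 and 17.7 FPKM at 10:6. XPO1, or CRM1, exports proteins with a leucine-rich signal as well as ribosomal subunits, and its co-culture libraries were all above those of BON-1 alone. Its mean was 1.75-fold that of BON-1 alone at 10:2, 2.14-fold at 10:4 and 1.94-fold at 10:6 (log2 change 0.88 ± 0.06, adjusted p = 1.16e-06), and it rose at each with the trends removed. The XPOT level was 7.27, 7.25 and 7.15 FPKM in BON-1 alone, 11.1, 11.3 and 11.8 FPKM at 10:2, 11.8, 13.1 and 12.2 FPKM at 10:4 and 12.2, 13.1 and 13.6 FPKM at 10:6. XPOT, the exporter of transfer RNA, did not overlap either and changed by 0.76 ± 0.05 at 10:6 (adjusted p = 6.49e-07). Levels of XPO6 were 55.9, 55.5 and 54.1 FPKM in BON-1 alone, 53.9, 52.9 and 53.3 FPKM at 10:2, 49.3, 46.98 and 50.8 FPKM at 10:4 and 50.2, 49.2 and 49.6 FPKM at 10:6. XPO6, the actin exporter and most abundant of the 6, was lower in every co-culture library and fell at 10:4 and 10:6 (log2 change -0.15 ± 0.03, adjusted p = 0.00238). XPO5, which exports precursors of microRNAs, was named after its values were seen and fell at 10:6 by 0.12 ± 0.04 (adjusted p = 0.0383). XPO4 lay at 0.543, 0.416 and 0.345 FPKM in BON-1 alone and at 0.82 to 1.28 FPKM in the co-cultures, so that it had to differ to be tested.

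Summed over all 52 genes the level was 1162 ± 12.5 FPKM at 10:6 and 1078 ± 10.0 FPKM in BON-1 alone (SD, n = 3 each).

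Between ratios few members differed. At 10:4, 6 members were higher than at 10:2 (background 2.47%) and 0 were lower (0.413%). They were RANBP2, TPR, IPO11, TNPO1, XPO1 and IPO7, with log2 differences of 0.52 ± 0.06, 0.42 ± 0.08, 0.34 ± 0.06, 0.32 ± 0.06, 0.28 ± 0.06 and 0.26 ± 0.06. For the first the adjusted p was 0.00264 and for the last 0.046. The choice of these 6 put 10:4 above 10:2, and all had also risen at 10:4 against BON-1 alone. Their means at 10:6 were below those at 10:4 too, but only for RANBP2 was that difference called. The count of 6 rested on single libraries: it was 3, 2 and 5 without 10:2 replicates 1, 2 and 3, and 7, 1 and 3 without 10:4 replicates 1, 2 and 3. With length and GC trends removed RANBP2 alone remained, at 0.37 (adjusted p = 0.002; background 0.577%).

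At 10:6 against 10:4, RANBP2 was the only member that changed, and it fell (background 0.233% falling; 0 members rose, background 0.0977%). Its libraries held 7.93, 8.56 and 8.63 FPKM at 10:6 and 11.7, 13.9 and 13.9 FPKM at 10:4, without overlap, a difference of -0.59 ± 0.06 (adjusted p = 0.00309). The difference was -0.56 with the trends removed (adjusted p = 0.000204) and -0.65 when reads of the RGPD copies were added to RANBP2, tested with limma-voom on recovered reads (adjusted p = 2.66e-11). In a fit of these groups alone its adjusted p was 0.0557, over the threshold of 0.05. Between 10:6 and 10:2 the log2 difference of RANBP2 was -0.07 ± 0.06 (adjusted p = 0.513). TPR was lower at 10:6 than at 10:4 by a similar size (-0.43 ± 0.08) with an adjusted p of 0.051, and TNPO1 by 0.26 ± 0.06 with an adjusted p of 0.0945, which was 0.0472 with the trends removed (background 0.519%).

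**Figure D3:**
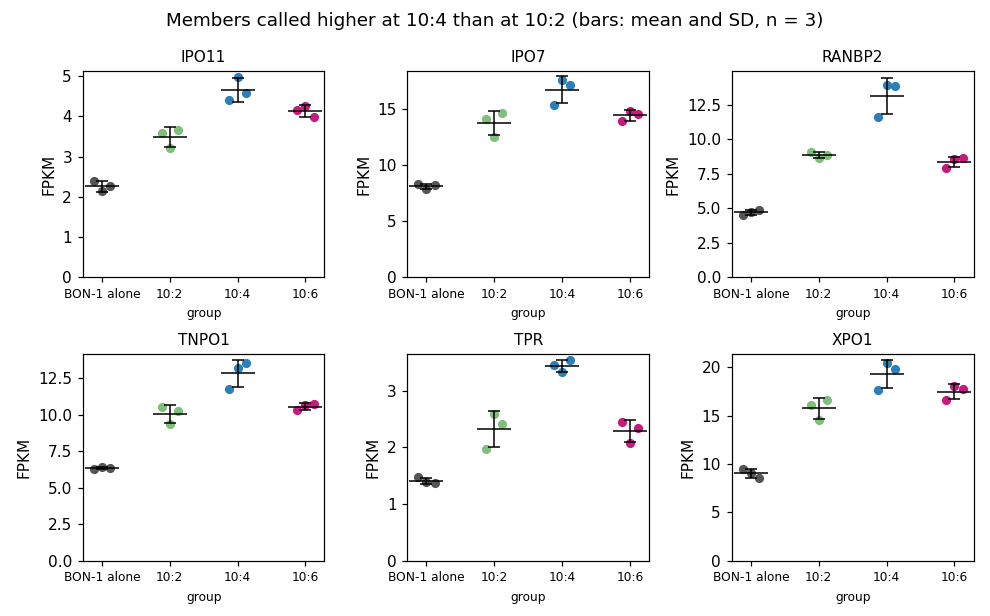
FPKM by library for the 6 genes that were higher at 10:4 than at 10:2, with the mean and SD of 3 libraries as bars and each vertical axis starting at 0. In all 6 panels BON-1 alone is lowest and 10:4 highest on average; in RANBP2 the 10:6 libraries lie between 7.93 and 8.63 FPKM and those at 10:2 between 8.67 and 9.09 FPKM.

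At 10:6 against 10:2, IPO8, KPNA1 and IPO5 rose (3 members, background 4.52%) and NUP188 and IPO4 fell (2 members, background 2.45%). The differences were 0.27 ± 0.07, 0.19 ± 0.05 and 0.17 ± 0.03 for those that rose, and -0.19 ± 0.04 and -0.18 ± 0.03 for those that fell, with adjusted p from 0.00664 for IPO4 to 0.0432 for IPO8. The rises were lost with the trends removed, and their count was 0 without 10:6 replicate 2 or 3 and 1 without 10:2 replicate 2 or 3. With the trends removed 0 members rose (background 1.66%), and NUP188, IPO4, NUP93 and RANBP2 fell (background 1.95%). By group means, 18 members were highest at 10:6 and lowest in BON-1 alone, 14 were highest at 10:4 and lowest in BON-1 alone, and 15 were highest in BON-1 alone. For most of these the neighbouring ratios did not differ beyond their spread, so the order among ratios is a description.

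**Figure D4:**
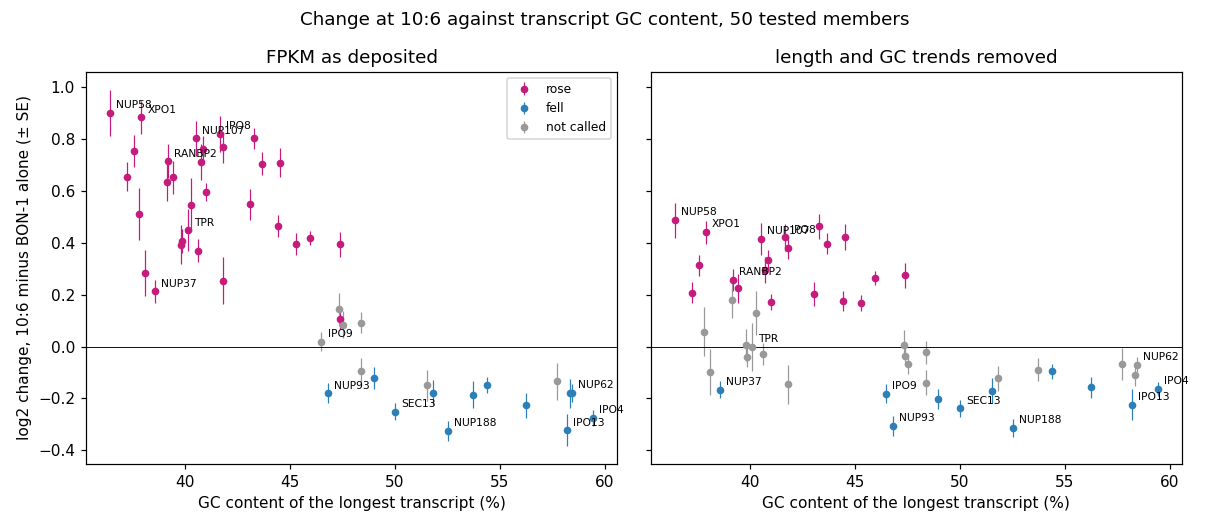
Log2 change at 10:6 against BON-1 alone (vertical, with SE) by GC content of the longest transcript in percent (horizontal) for the 50 tested genes, from the FPKM as deposited (left) and with each library's length and GC trends removed (right). Magenta points rose, blue points fell and grey points passed no test; on the left all genes that rose hold at most 47.4% GC, and on the right NUP58, XPO1, NUP188 and NUP93 stand out on either side of 0.

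The direction of change ran with base composition among the members and among all genes. At 10:6 the members that rose held 36.4% to 47.4% GC and those that fell 46.8% to 59.4%. Spearman's rho of GC content and log2 change over the 50 members was -0.81 at 10:2, -0.87 at 10:4 and -0.79 at 10:6, where all tested genes with a GC value (12140) gave -0.68, -0.72 and -0.72; genes of one library share its depth and composition, so these are descriptions. For 10:4 against 10:2 the values were -0.90 over the members and -0.50 over all genes, and for 10:6 against 10:4 they were 0.22 and 0.0094. The step that removes the trends also removes any other change that runs with GC content or length. At 10:6, 20 members rose with and without the step, among them XPO1, NUP58, RANBP2, IPO8, NUP107, NUP160, NUP155 and XPOT. The 8 that fell with and without it were NUP188, NUP93, SEC13, IPO4, IPO13, TNPO2, XPO6 and XPO5.

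The promoters, 250 bases before to 50 after the start in RefSeq (GRCh38.p14), were searched on both strands for the letters of 6 motifs; 46 members had an entry. The ETS core CCGGAAG was in 16 of the 46 (34.8%), against 19.5% of the 9133 promoters of tested genes and 10.7% of all 27305. CCAAT, the box bound by NF-Y, was in 19 (41.3%, against 36.7% of tested genes' promoters), and GGGCGG, the SP box, in 24 (52.2%, against 70.7%). The NRF1 motif was in 3 (6.52%, against 2.35% of tested genes' promoters), TGACGTCA (CRE) in 2 (4.35%, against 3.36%) and the YY1 motif in 3 (6.52%, against 2.17%). Of the 27 promoters of members that rose at 10:6, 10 held the ETS core, as did 3 of the 12 of members that fell. The shares among all genes that rose or fell were not computed, so this split has no background. The RANBP2 window held none of the 6. The promoters of XPO1, which rose, and IPO4, which fell, are shown with their matches in capitals, both CCAAT boxes and both SP boxes in XPO1 and the ETS core in IPO4.
XPO1, GRCh38.p14 chr2:61538307-61538606, minus strand: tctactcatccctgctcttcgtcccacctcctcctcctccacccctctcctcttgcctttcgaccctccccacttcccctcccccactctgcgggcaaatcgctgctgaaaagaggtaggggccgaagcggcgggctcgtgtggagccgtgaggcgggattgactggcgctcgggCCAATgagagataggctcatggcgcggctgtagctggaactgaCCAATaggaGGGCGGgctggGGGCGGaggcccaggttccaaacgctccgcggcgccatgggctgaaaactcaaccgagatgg
IPO4, GRCh38.p14 chr14:24188767-24189066, minus strand: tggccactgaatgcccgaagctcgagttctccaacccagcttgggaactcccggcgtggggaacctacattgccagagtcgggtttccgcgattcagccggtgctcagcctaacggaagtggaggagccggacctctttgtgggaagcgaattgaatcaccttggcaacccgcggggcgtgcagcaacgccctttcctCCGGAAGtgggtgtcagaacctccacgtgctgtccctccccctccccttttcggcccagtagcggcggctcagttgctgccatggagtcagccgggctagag
The XPO1 window ends at 61538606, inside the gene as listed (to 61538612), so the start used for it differs from the outer end of the gene. A match of letters is a description and not a binding site.

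Genes that work with the pore were read from lists chosen with these data known. In the Ran cycle, 1 of 8 genes rose and 4 fell at 10:6, where 29.7% of all tested genes rose and 18.3% fell. CSE1L, the exportin that returns importin alpha to the cytoplasm, rose to 34.2 ± 0.706 FPKM at 10:6 against 23.8 ± 1.305 FPKM in BON-1 alone. Like RANBP2 it was also higher at 10:4 than at 10:2 (log2 difference 0.26 ± 0.05) and lower at 10:6 than at 10:4 (-0.36 ± 0.05, adjusted p = 0.0152). With the trends removed its rise at 10:6 was not called (0.09, adjusted p = 0.152), nor was the difference between 10:4 and 10:2 (adjusted p = 0.27), and it stayed lower at 10:6 than at 10:4 (-0.33, adjusted p = 0.00613). The genes that fell were RANGAP1, the GTPase-activating partner that docks on RANBP2, RCC1, the exchange factor that loads Ran with GTP, RANBP3 and NUTF2, the importer of Ran, by 0.27, 0.15, 0.21 and 0.18. RAN itself passed no test, at 284 ± 0.928 FPKM at 10:6 and 298 ± 5.58 FPKM in BON-1 alone. Of the other pore genes outside the rule AHCTF1, which recruits the Y complex to chromatin, and NUPL2, a cytoplasmic face protein now named NUP42, rose at 10:6, by 0.56 and 0.43, calls that were lost with the trends removed. AHCTF1 passed the filter only through the co-cultures.

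Of 17 mRNA export genes 4 rose and 6 fell at 10:6, where 29.7% of all tested genes rose and 18.3% fell. Among them were THOC2 (0.57 ± 0.10) and the helicase DDX39A (-0.20 ± 0.04). Of 12 tested genes of the lamina and envelope 5 rose and 4 fell, on the same background of 29.7% and 18.3%. LBR, the lamin B receptor, had a mean of 20.3 ± 1.74 FPKM at 10:6 and 10.9 ± 0.454 FPKM in BON-1 alone (0.84 ± 0.07, adjusted p = 3.89e-06), and LMNB1, TMPO, TOR1AIP1 and LEMD3 rose as well. LMNA, LMNB2, BANF1 and SUN2 fell, by at most 0.19 on the log2 scale. With length and GC trends removed the counts at 10:6 were 1 rising (RANBP1) and 4 falling (RAN among them) in the Ran cycle, 0 and 4 in mRNA export, 4 and 1 in the lamina and envelope, and 0 and 1 of 5 tested among the other pore genes, on a background of 11.5% and 14.1%.

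Reads of overlapping genes limit some values. By GENCODE 29, 26 of the 52 members share exon bases with another gene, 9 of them with a gene on the same strand, and whether the counting used strand is not given in the sources used here. NUP62 shares bases with IL4I1 on its strand, IPO4 with AL136295.4 and NUP188 with AL672142.1 on theirs, and IPO4 with REC8 and NUP188 with SH3GLB2 on the opposite strand; RANBP2 and NUP58 share none.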

How the data were processed

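The authors deposited 1 table with the FPKM of each gene in the 12 RNA libraries. The submitters' processing notes name HISAT2, featureCounts and hg38, but no version, step or strand setting. The code in a sample's title gave its column.

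Whole reads were recovered from the FPKM steps: 99.9738% of 267349 nonzero values came out whole within 1e-06 of a read. Recovered reads made up at least 99.9629% of each library's FPKM denominator, at depths of 11703624 to 21882537. Replicates varied beyond counting error (chi-square per degree of freedom 1.66 to 4.07), so none was treated as a repeat.

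The 13312 genes that reached 1 FPKM in 3 or more libraries entered the test, on log2(FPKM + 1), in limma 3.58.1 under R 4.3.3. The model held a mean for each group, used all 12 libraries and let the variance follow a trend. The pseudocount of 1 makes a fold change understate that of low genes. P-values were adjusted by Benjamini-Hochberg over all tested genes within a comparison, at a threshold of 0.05. Removal of trends fitted splines of 5 degrees of freedom on GC content and gene length in each library, over the 12140 genes (91.2%) with both. GC content was that of the longest transcript. Length was the smallest that made a gene's recovered reads whole, so it can differ from that of a transcript. Same-numbered libraries did not deviate together (18 pairs, r -0.0427 to 0.0458), so the replicate numbers were not taken to pair them. In simulated data with known changes between 10:6 and BON-1 alone (13069 genes), the fit called 14.6% of genes that had been changed 1.25-fold, and 63.3%, 92% and 100% of those changed 1.5-, 2- and 4-fold, with 2.90% of 138 calls false. Few genes were changed in the simulation, every gene had the same spread setting, and no GC trend was put in. In the data 29.7% of tested genes rose and 18.3% fell at 10:6, so these rates may not hold there.

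The members and lists were chosen with earlier results of these data known. Members are named by a rule: RANBP2; the 8 largest rises and falls at 10:6 and the 4 largest at 10:2 and 10:4 against BON-1 alone, among those with at least 5 FPKM in the higher group and no overlap; all called between ratios; and the highest in each role group. Other members named were chosen after their values were seen. Alternatives tried were another pseudocount (0.1), no filter, median-of-ratios scaling, a fit of the groups compared alone, the replicate block, trend removal, limma-voom on recovered reads and leaving out each library. Python 3.11.15 with pandas 2.3.3 was used for tables.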

Additional observations from a re-analysis of the deposited data

How the results depend on the processing

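Counts of members per comparison were recomputed under every alternative. With length and GC trends removed, 18 members rose at 10:2 and 20 at 10:6 against BON-1 alone; between ratios 1 rose at 10:4 against 10:2, 2 fell at 10:6 against 10:4, and 0 rose and 4 fell at 10:6 against 10:2. With limma-voom on recovered reads, 8 fell at 10:2 against BON-1 alone, 5 fell at 10:4 against 10:2, 4 fell at 10:6 against 10:4, and 8 rose and 8 fell at 10:6 against 10:2; over all genes that test called 13.7%, 1.77%, 1.9%, 6.03% and 5.82% in those directions. Without the filter on low values 2 fell at 10:2 against BON-1 alone, 3 rose at 10:4 against 10:2 and 1 rose at 10:6 against 10:2. In fits of the groups compared alone 1 rose at 10:4 against 10:2, 0 fell at 10:6 against 10:4 and 0 rose at 10:6 against 10:2, and the RANBP2 difference of -0.59 between 10:6 and 10:4 had an adjusted p of 0.0557. Median-of-ratios scaling gave 2 falls at 10:6 against 10:4 and 4 at 10:6 against 10:2, beside 0.263% and 3.62% of all genes. With the replicate number as a block, 2 fell at 10:2 against BON-1 alone and 2 rose at 10:4 against 10:2; the numbers share no more than a label, since no pair of same-numbered libraries deviated together. The share of all genes called was not computed without the filter, for the groups compared alone, for the replicate block or with a library left out. Counts under those settings therefore cannot be set against a background. The cause of these shifts was not tested.

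Leaving out 1 library at a time, the rising counts ranged from 27 to 29 at 10:2, 29 to 29 at 10:4 and 28 to 30 at 10:6 against BON-1 alone, from 1 to 7 at 10:4 against 10:2, 0 to 0 at 10:6 against 10:4 and 0 to 4 at 10:6 against 10:2. The falling counts ranged from 1 to 3, 10 to 12, 9 to 12, 0 to 2, 1 to 2 and 1 to 4 in the same order of comparisons. The falls at 10:2 against BON-1 alone were 2, 1 and 1 without BON-1 alone replicates 1, 2 and 3, and 2, 3 and 1 without 10:2 replicates 1, 2 and 3, so that count depended on every library. Falls at 10:6 against 10:2 became 4 without 10:6 replicate 1 and 1 without replicate 2 or 3, and falls at 10:6 against 10:4 became 2 without 10:4 replicate 1. RANBP2 between 10:6 and 10:4 ranged from -0.67 to -0.55.

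Among the members named by the rule, directions turned with trends removed for KPNA1 (-0.10 at 10:2, -0.15 at 10:4 and -0.0386 at 10:6 against BON-1 alone) and for TPR (-0.000126 at 10:6). Members outside the rule were not part of that check. NUP37, for example, also turned at 10:4 and 10:6, as given above. Over the named members' other settings 2019 values kept direction and call, 42 gained a call, 106 lost one and 4 turned. KPNA7, at 0 to 4 reads per library, was too low for a firm value. KPNA5 held 45 to 76 reads per library and XPO4 held 44 to 90 in BON-1 alone, so their values rest on few reads.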
